A study of Mus musculus with 12 samples.

Results

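Cytotoxic granules were examined through 10 genes that encode their contents and membrane: the pore former *Prf1*, the granzymes *Gzma*, *Gzmb*, *Gzmc*, *Gzmk* and *Gzmm*, the granule scaffold *Srgn*, and the granule-associated *Nkg7*, *Ctsw* and *Lamp1*. They were chosen by gene symbol as known granule components, with earlier results of these data known. All 10 were among the 25860 genes listed and the 14459 genes tested. Accessible regions were chosen as the peaks annotated to these symbols, which gave 13 of the 23932 peaks listed.

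Killer T cells store perforin and granzymes in secretory lysosomes, bound to the proteoglycan serglycin. On contact with a target cell the granules move to the synapse and fuse with the plasma membrane. Perforin then opens a path for the granzymes, serine proteases that cleave substrates inside the target, and in autoimmune diabetes CD8+ T cells use this route against pancreatic β cells.

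The libraries came from progenitor CD8+ T cells (T_prog_) sorted from the pancreatic lymph node of female NOD mice that carry the NY8.3 T cell receptor transgene, specific for a β cell antigen, in both groups. The control group, called WT, was *UTX fl/fl* without Cre; the *UTX TCD* group was *UTX fl/fl* with Lck-Cre, which deletes the histone demethylase UTX (*Kdm6a*) in the T cell lineage from the thymus on, so that deletion was not limited to mature CD8+ cells. The floxed and Cre alleles had been moved from B6 onto NOD by repeated backcrossing, and the authors found the known diabetes loci to be of NOD origin; flanking B6 sequence was not checked here. No treatment was given, the age of the mice was not given in the sources used here, and the sort gate was Ly108+CXCR6- in the series description and Ly108+CD39- in the methods. Each genotype had 3 RNA-seq libraries and 3 ATAC-seq libraries. The replicates were described as biological for ATAC-seq, and p-values measured the spread between libraries.

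RNA values were the authors' normalized counts, that is, reads per gene divided by a size factor for each library. The reads behind them numbered 146456724, 144503203 and 193568919 in WT replicates 1, 2 and 3, and 61512402, 175462433 and 187275082 in *UTX TCD* replicates 1, 2 and 3. *UTX TCD* replicate 1 was thus the shallowest library. The test was limma on log2(normalized count + 1), run where the mean normalized count reached 10. A call needed 2 things: an adjusted p below 0.05, and a log2 fold change beyond 0.5 in either direction. All log2 fold changes are *UTX TCD* over WT.

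The sorted cells carried CD8+ progenitor transcripts in every library. *Cd8a*, the most abundant of 8 CD8 T cell markers, averaged 272155 ± 2012 normalized counts in WT and 298501 ± 23849 in *UTX TCD* (SD, n = 3 each), and *Tcf7*, which encodes the progenitor factor TCF1, averaged 235632 and 224012. None of the 8 was called by limma, edgeR or DESeq2. At unadjusted p under 0.05, 3 were lower and 2 higher. Of all genes tested, 40.7% passed the adjusted p at any fold, 2963 lower and 2924 higher. At least that share was therefore under 0.05 unadjusted, which applies to each such count below. *Kdm6a* itself was 28365, 28949 and 29172 normalized counts in WT and 24159, 24792 and 24579 in *UTX TCD*. Each *UTX TCD* library was below each WT library, by a log2 fold change of -0.23 (adjusted p = 0.00114, SE 0.037). Reads summed over the gene cannot show the floxed exons alone, so this value is a weak check of the deletion.

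Of the 10 granule genes, 4 were called lower in *UTX TCD* cells (*Gzma*, *Gzmc*, *Srgn* and *Ctsw*), against 7.05% of all genes tested. *Gzmc* reached the minimum mean of 10 only through WT, with a mean of 18.5 normalized counts there and 3.81 in *UTX TCD*. At a minimum mean of 50 it was not tested, and 3 genes were called. With libraries scaled to the same sum, or at a fold of 1.5, 2 were called lower, *Gzma* and *Gzmc*. None of the 10 was called higher by limma, edgeR or DESeq2, against 10.5% of all genes. At unadjusted p under 0.05, 6 were lower and 1, *Prf1*, was higher. In either direction 17.6% of all genes were called, so the calls were many across the genome. Without the fold limit, 6 of the 10 passed the adjusted p, against 40.7% of all genes. In 6 each of the *UTX TCD* values was below the lowest WT value, against 26.1% of all genes, and in 7 the groups did not overlap in either direction, against 51.9%. The median log2 fold change was -0.46 over the 10 and -0.00018 over all genes tested. In bulk RNA, fewer cells that express a gene and less RNA per cell cannot be told apart.

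**Figure D1:**
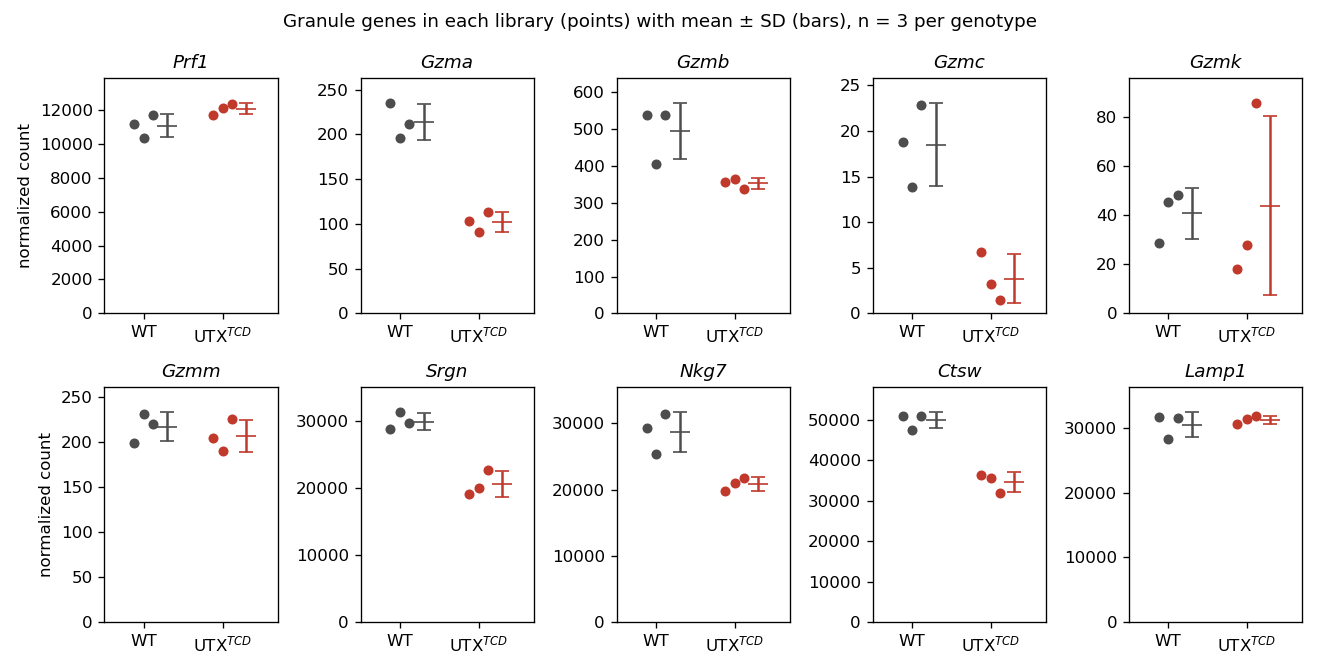
Normalized counts (y axis, linear from 0, a separate scale for each gene) of the 10 granule genes in the WT and *UTX TCD* groups; points are libraries and bars are mean ± SD, n = 3 per genotype. The *UTX TCD* points of *Gzma*, *Gzmb*, *Gzmc*, *Srgn*, *Nkg7* and *Ctsw* lie below those of WT, those of *Prf1* lie just above, and *Gzmk*, *Gzmm* and *Lamp1* overlap.

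The pore-forming protein comes first, and gene positions are those of RefSeq on GRCm38.p6, the assembly also called mm10. *Prf1* (chr10:61297751-61304684, plus strand) was 11172, 10322 and 11681 normalized counts in WT replicates 1, 2 and 3, and 11706, 12095 and 12357 in *UTX TCD* replicates 1, 2 and 3. Each *UTX TCD* value exceeded those of WT, but the lowest of them sat next to the highest WT library. The means were 11058 ± 686 and 12053 ± 328 (SD, n = 3 each), and the log2 fold change of 0.13 (SE 0.053, 95% confidence interval 0.0055 to 0.25) did not pass the adjusted p (0.0892). Across the alternatives run its log2 fold change stayed between 0.077 and 0.19, under the fold limit. The adjusted p was under 0.05 with libraries scaled to the same sum (0.0120) and without WT replicate 3 (0.0497).

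Among the granzymes, *Gzma* (chr13:113093824-113100981, minus strand), a tryptase that cuts after basic residues, was 235, 195 and 211 normalized counts in WT and 103, 90.5 and 113 in *UTX TCD*. The groups were well apart, with the highest *UTX TCD* library far under the lowest WT library. The means were 214 ± 19.8 and 102 ± 11.2, a log2 fold change of -1.06 (SE 0.17, 95% confidence interval -1.43 to -0.68, adjusted p = 0.00104). *Gzma* lies inside *Cdc20b* on the opposite strand, and that gene averaged 1.68 and 1.28 normalized counts. Strand use in counting was not stated, and reads where these genes overlap were not separated.

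*Gzmb* (chr14:56258836-56262334, minus strand) encodes the aspartate-cutting granzyme that activates caspases and Bid. It was 539, 407 and 538 normalized counts in WT and 355, 366 and 338 in *UTX TCD*. WT replicate 2 was the lowest WT library, and it still lay above the *UTX TCD* libraries, which were close to each other. The means were 494 ± 75.9 and 353 ± 14.3. The log2 fold change of -0.47 (SE 0.14, 95% confidence interval -0.78 to -0.17, adjusted p = 0.0217) passed the adjusted p but not the fold limit, so *Gzmb* was not called. Without WT replicate 2 it was -0.61 and called. The adjusted p was over 0.05 without WT replicate 1 (0.0944), WT replicate 3 (0.0800) or *UTX TCD* replicate 2 (0.0501).

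*Gzmc* (chr14:56231397-56241647, minus strand), a neighbour of *Gzmb* in the granzyme cluster of chromosome 14, was scarce: 18.8, 13.8 and 22.9 normalized counts in WT, from 19, 14 and 30 reads. In *UTX TCD* it was 6.75, 3.20 and 1.47, from 3, 4 and 2 reads. The groups were apart, but the *UTX TCD* values were near the limit of 3 reads that a count of 0 allows, which covers counting error only. The log2 fold change was -2.15 (SE 0.52, 95% confidence interval -3.33 to -0.97, adjusted p = 0.0102). Across the alternatives run it ranged from -2.57 to -1.44, and with a minimum mean of 50 it was not tested. The granzymes of this cluster are close in sequence, and how reads matching several genes were counted was not stated, so its level is uncertain.

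*Gzmk* (chr13:113171630-113180965, minus strand), a tryptase located next to *Gzma* on chromosome 13, varied widely between libraries of one genotype. It was 28.7, 45.4 and 48.0 normalized counts in WT and 18.0, 28.0 and 85.5 in *UTX TCD*. *UTX TCD* held both the lowest library, replicate 1 with 8 reads, and the highest, replicate 3, so the groups overlapped. The means were 40.7 ± 10.5 and 43.8 ± 36.4, higher in *UTX TCD*, while on the log scale the sign was opposite, with a log2 fold change of -0.17 (SE 0.52, 95% confidence interval -1.34 to 1.00, adjusted p = 0.822). It turned to 0.30 without *UTX TCD* replicate 1, and to -0.80 in the lowest of the fits that left out 1 library.

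*Gzmm* (chr10:79689020-79695261, plus strand), which cuts after methionine or leucine, was 199, 231 and 220 normalized counts in WT and 205, 190 and 225 in *UTX TCD*. These ranges overlapped almost fully. The log2 fold change was -0.070 (SE 0.14, 95% confidence interval -0.39 to 0.25, adjusted p = 0.730).

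The other 5 mouse granzymes of the chromosome 14 cluster were under the minimum and not tested. *Gzmd*, *Gzme* and *Gzmg* had 0 reads in all libraries. *Gzmf* had 1, 4 and 2 reads in the WT libraries and 0 in each *UTX TCD* library, and *Gzmn* had 1 read in WT replicate 1 alone. No fold is given for these.

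The scaffold gene *Srgn* (chr10:62493833-62527445, minus strand) encodes serglycin, whose acidic sugar chains hold perforin and granzymes in the granule core. It was 28729, 31275 and 29653 normalized counts in WT and 19061, 20058 and 22693 in *UTX TCD*. The groups were apart, with *UTX TCD* replicate 3 the highest of its group. The means were 29886 ± 1289 and 20604 ± 1876, a log2 fold change of -0.54 (SE 0.066, 95% confidence interval -0.69 to -0.39, adjusted p = 0.000252). It was near the fold limit and fell short of it at -0.49 without *UTX TCD* replicate 1 and at -0.48 with libraries scaled to the same sum.

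*Ctsw* (chr19:5465043-5468628, minus strand) encodes cathepsin W, a cysteine protease made mainly by CD8+ T and NK cells. It was 51037, 47615 and 51050 normalized counts in WT and 36476, 35700 and 31950 in *UTX TCD*. All *UTX TCD* libraries were lower, replicate 3 the lowest. The means were 49901 ± 1979 and 34708 ± 2421, a log2 fold change of -0.53 (SE 0.058, 95% confidence interval -0.66 to -0.39, adjusted p = 0.000143). It fell short of the fold limit at -0.47 without *UTX TCD* replicate 3 and at -0.46 with libraries scaled to the same sum. Its 3′ end overlaps that of *Fibp* on the opposite strand, from position 5465043 to 5465052 only. *Fibp* averaged 3723 and 3116 normalized counts. Since strand use in counting was not stated, reads in this short overlap cannot be told apart.

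*Nkg7* (chr7:43437138-43438246, plus strand) encodes a granule membrane protein of killer lymphocytes that takes part in degranulation. It was 29281, 25448 and 31335 normalized counts in WT and 19756, 21067 and 21719 in *UTX TCD*. The groups did not overlap, with WT replicate 2 the lowest WT library. The log2 fold change of -0.46 (SE 0.074, 95% confidence interval -0.62 to -0.29, adjusted p = 0.00127) was under the fold limit. Without WT replicate 2 it was -0.54 and called.

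*Lamp1* (chr8:13159161-13175338, plus strand) encodes the lysosomal membrane protein CD107a, which reaches the cell surface when granules fuse. It was 31554, 28200 and 31535 normalized counts in WT and 30524, 31375 and 31743 in *UTX TCD*. Apart from WT replicate 2, the values lay close together and the groups overlapped. The log2 fold change was 0.038 (SE 0.052, 95% confidence interval -0.079 to 0.16, adjusted p = 0.592); without WT replicate 2 it was -0.015.

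Levels were compared between genes per kb of merged RefSeq exon. This length joins the exons of all RefSeq models of a gene, so the order depends on it. It was 3743 bp for *Srgn* and 2833 bp for *Gzmm*, against 881 bp for *Gzma* and 813 bp for *Nkg7*. Before this division, the WT means of *Srgn* (29886) and *Lamp1* (30430) were close, as were those of *Gzmm* (217) and *Gzma* (214). In WT, *Nkg7* was the highest at 35287 ± 3675 normalized counts per kb, and its range overlapped that of *Ctsw* at 31266 ± 1240. *Lamp1* followed at 13634 ± 865, *Srgn* at 7984 ± 344 and *Prf1* at 4146 ± 257. The granzymes were far lower: *Gzmb* 327 ± 50.2, *Gzma* 243 ± 22.4, *Gzmm* 76.5 ± 5.71, *Gzmk* 36.9 ± 9.49 and *Gzmc* 16.5 ± 4.05 normalized counts per kb. In *UTX TCD* the means stood in the same order, from *Nkg7* at 25643 to *Gzmc* at 3.40. There *Nkg7* and *Ctsw* (21747) no longer overlapped, and *Gzmk*, at 39.7 ± 33.0, overlapped *Gzmm*, at 72.9 ± 6.21.

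The genes whose profile over the 6 libraries was most like that of *Gzmb*, by Euclidean distance between log2 profiles centred on their own mean, were *Orai2* (distance 0.0744), *Esyt1* (0.0924) and *Glb1* (0.0969). For *Gzma* they were *Nradd* (0.154), *Cpm* (0.171) and *Tec* (0.188).

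Genes that act on granule proteins before release were read from a list of 19 for maturation and sorting, all tested. Of these, 4 were called lower (7.05% of all genes tested) and none higher (10.5% of all) by limma, edgeR or DESeq2. At unadjusted p under 0.05, 10 were lower and 4 higher, against at least 40.7% of all genes in either direction. The median log2 fold change was -0.20. *Cst7*, encoding cystatin F, an inhibitor of the cathepsins that activate granzymes, was 5696, 4167 and 5195 normalized counts in WT and 918, 868 and 994 in *UTX TCD*. Every *UTX TCD* library was far below every WT library, and the log2 fold change was -2.43 (adjusted p = 9.26e-07, SE 0.11). *Gnptg*, a subunit of the enzyme that makes the mannose 6-phosphate sorting tag, fell by 0.92 on the log2 scale (adjusted p = 4.09e-06, SE 0.053). *Lyst*, the lysosomal trafficking regulator mutated in beige mice, fell by 0.61 (adjusted p = 0.000105, SE 0.064). *Igf2r*, a mannose 6-phosphate receptor, fell by 0.53 (adjusted p = 4.46e-05, SE 0.048), but it fell short of the fold limit with libraries scaled to the same sum and without WT replicate 2 or *UTX TCD* replicate 3.

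Of 16 genes for granule transport, docking and release, 15 were tested, 3 were called lower (7.05% of all genes) and none higher (10.5%) by limma, edgeR or DESeq2, with 0 higher at unadjusted p under 0.05. The median log2 fold change was -0.12. All 3 encode synaptotagmin-like proteins, which bind the granule GTPase Rab27. *Sytl2* was 1694, 1383 and 1452 normalized counts in WT and 394, 274 and 248 in *UTX TCD*. The groups were far apart, with a log2 fold change of -2.33 (adjusted p = 1.38e-05, SE 0.17). *Sytl1* fell by 1.20 (adjusted p = 3.47e-05, SE 0.10) and *Sytl3* by 0.62 (adjusted p = 0.000122, SE 0.066). *Vamp7* was listed at 0 in all libraries.

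**Figure D2:**
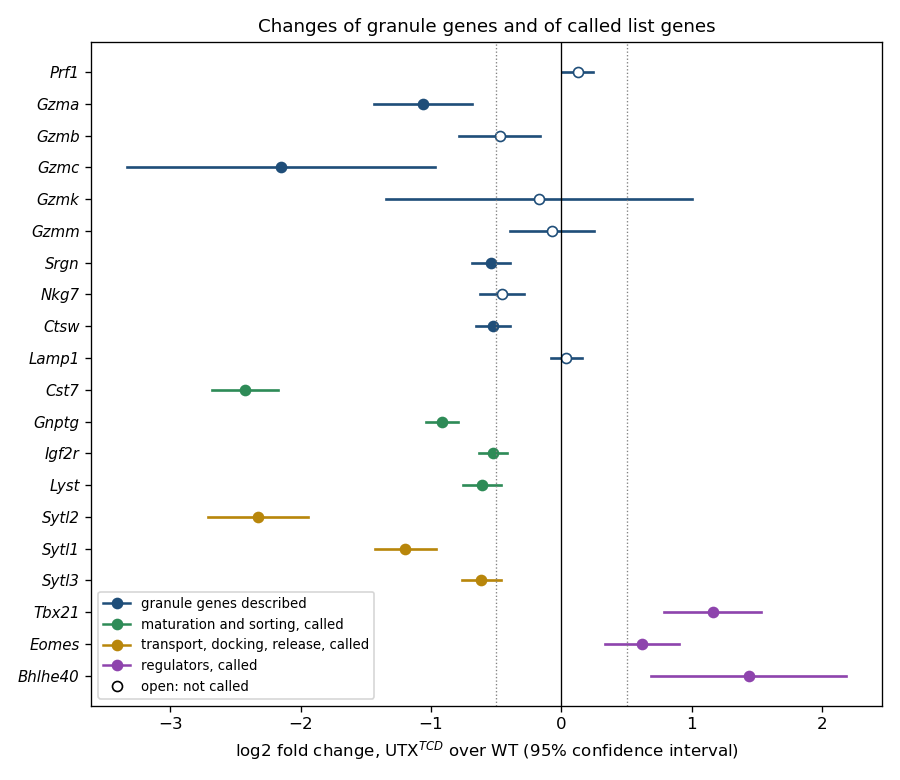
Log2 fold change of *UTX TCD* over WT (x axis) with its 95% confidence interval for the 10 granule genes and for the called genes of the maturation, release and regulator lists; filled points were called, open points were not, and dotted lines mark the fold limit of 0.5. *Gzmc* (-2.15), *Cst7* (-2.43) and *Sytl2* (-2.33) lie farthest to the left, and *Gzmk* has an interval from -1.34 to 1.00.

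None of the 5 tested inhibitors of granzymes and cathepsins (8 listed) was called by limma, edgeR or DESeq2. At unadjusted p under 0.05, 4 were lower and 1 higher, against at least 40.7% of all genes in either direction. The median log2 fold change was -0.23. None of 12 granzyme substrates and SET complex genes was called by any of these tools either. At unadjusted p under 0.05, 4 of them were lower and 3 higher, again against at least 40.7%, and their median was -0.015. Of 10 transcriptional regulators of cytotoxic genes, 9 were listed and tested. Of these, 3 were called higher (10.5% of all genes) and none lower (7.05%) by the same tools. At unadjusted p under 0.05, 0 were lower and 4 higher, against at least 40.7% of all genes in either direction. Their median was 0.12. *Tbx21*, encoding T-bet, was 646, 877 and 589 normalized counts in WT and 1404, 1420 and 1872 in *UTX TCD*. All *UTX TCD* libraries were higher, by a log2 fold change of 1.16 (adjusted p = 0.000570, SE 0.16). *Eomes*, which encodes the related T-box factor, rose by 0.62 (adjusted p = 0.00388, SE 0.12), but was under the fold limit, at 0.46, without *UTX TCD* replicate 3. *Bhlhe40*, a basic helix-loop-helix repressor, rose by 1.44 (adjusted p = 0.00778, SE 0.33).

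Markers of other cells moved as well, and their part in the granule gene values was not tested. Beside the counts of called markers below, 7.05% of all genes tested were called lower and 10.5% higher. Of 8 markers of mediator and effector CD8+ cells, which include *Gzmb* and *Prf1*, 5 were tested and 2 were called lower, *Cxcr6* and *Havcr2*. *Cxcr6*, whose protein was absent by the series' sort gate, averaged 12033 normalized counts in WT and 5658 in *UTX TCD*. *Havcr2* reached the minimum only through WT (mean 18.0, against 3.05 in *UTX TCD*), and at a minimum mean of 50 it was not called. The sum of these 8 was 24504, 20417 and 25983 in WT and 17354, 18478 and 18416 in *UTX TCD*; *Cxcr6* was the most abundant in WT and *Prf1*, which was not called, in *UTX TCD*. Of 7 NK cell markers, 5 were tested and 2 called higher, *Klra4* at 2.55 and *Klri2* at 4.29 (log2). *Klri2* had 4, 4 and 2 reads in WT, near the limit of 3 reads that a count of 0 allows, so its fold is uncertain. It had 43, 95 and 82 reads in *UTX TCD* and reached the minimum only through that group. At a minimum mean of 50 neither was called. The fold changes of the other 3 were negative and not called: *Klrb1c* at -1.18, *Fcer1g* at -0.47 and *Tyrobp*, the most abundant, at -0.35 (log2). The sum of the 7 was 223, 255 and 153 in WT and 335, 260 and 309 in *UTX TCD*. The NK-defining *Ncr1* was covered by 7, 0 and 0 reads among the WT libraries and by 0, 0 and 4 among those of *UTX TCD*, and *Klra8*, also under the minimum, by 0 in each WT library and by 2, 6 and 13 reads in *UTX TCD*.

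Of 8 myeloid markers, 5 were tested and 3 called lower (7.05% of all genes), *Itgam*, *Fcgr3* and *Csf1r*. *Csf1r* reached the minimum only through WT (mean 24.2, against 6.07 in *UTX TCD*), and at a minimum mean of 50 only *Itgam* was called lower. The most abundant, *Cd68*, went the other way, from 632 to 857 normalized counts on average (log2 fold change 0.43, adjusted p = 0.0377, SE 0.14), under the fold limit but called higher without *UTX TCD* replicate 2. *S100a8* was at 0 in all libraries. The sum of the 8 was 1318, 1278 and 1161 in WT and 1122, 888 and 1057 in *UTX TCD*. Of 6 mast cell and basophil markers, both tested genes (*Cpa3* and *Kit*) were called lower, while *Fcer1a*, *Mcpt8* and *Ms4a2* were at 0 in all libraries; *Kit* was the most abundant, and the sum was 3033, 4063 and 3091 in WT and 1395, 1553 and 1892 in *UTX TCD*. Of 5 B cell markers, 4 were tested, *Cd79b*, the most abundant, was called lower and *Ms4a1* higher, a call lost without WT replicate 1 or 3 or *UTX TCD* replicate 2 or 3. The sum was 2951, 2437 and 2800 in WT and 1221, 1082 and 1000 in *UTX TCD*. Of 3 CD4 T cell markers *Cd4* was called lower, a call lost without any 1 of the WT replicates or *UTX TCD* replicate 1 or 3, with same-sum scaling and with DESeq2, and *Foxp3*, which was not called, was the most abundant; the sum was 450, 378 and 404 in WT and 382, 364 and 346 in *UTX TCD*.

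The nearest listed genes on either side of each granule gene were read by their start positions. *Prf1* lies between *Adamts14* and *Pald1*, both called lower: *Adamts14* fell by 1.06 on the log2 scale (adjusted p = 0.00195, SE 0.19), and *Pald1* fell by 1.75 (adjusted p = 0.00112, SE 0.28). *Prf1* between them was not called. *Lamp1* is followed by *Grtp1*, which averaged 63.7 ± 3.98 normalized counts in WT and 206 ± 21.5 in *UTX TCD* and was called higher, with a log2 fold change of 1.67 (adjusted p = 0.000101, SE 0.17); *Cul4a* on its other side was not called. *Cdc34* and *Bsg* beside *Gzmm*, *Vps26a* and *Kifbp* beside *Srgn*, *Fibp* and *Efemp2* beside *Ctsw*, and *Cldnd2* beside *Nkg7* were not called. *Gpx8*, *Esm1*, *Atp12a*, *Gzmf* and *Lim2* were under the minimum.

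In the ATAC-seq data, 7 of the 10 genes had at least 1 listed peak and 3 (*Prf1*, *Nkg7* and *Ctsw*) had none. The table lists differential peaks only, so a gene without a peak may have accessible regions that are not listed. Of the 13 peaks, 7 had a lower mean concentration in *UTX TCD*, against 31.2% of all listed peaks, and 6 a higher one. Concentrations are the authors' mean log2 normalized reads in a peak for each genotype, and no spread between libraries was given. Positions are on mm10.

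At *Gzmb* the peak at chr14:56262159-56262559 covered the promoter and the start of the gene, 25 bp from the annotated transcription start. The authors' mean log2 concentration was 9.40 in WT and 8.45 in *UTX TCD*, a difference of -0.96. An intergenic peak at chr14:56287772-56288172, 25.6 kb upstream, had 8.98 in WT and 8.36 in *UTX TCD*, a difference of -0.62. Between them the peak at chr14:56276069-56276469, which touches an exon of the RefSeq gene *Gm48200*, went the other way, with 9.05 in WT and 9.37 in *UTX TCD*. The *Gzmc* peak at chr14:56240417-56240817 was annotated as intergenic by the authors but lies in an intron of the longer RefSeq *Gzmc* model, over *Gm24118*; its concentration was 8.16 in WT and 7.57 in *UTX TCD*. In this cluster, 3 of 4 listed peaks were lower, at genes whose RNA was lower in all *UTX TCD* libraries.

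*Srgn* had 5 listed peaks, 4 lower and 1 higher. The peak annotated to its promoter at chr10:62508433-62508833 touches a RefSeq exon and had 9.06 in WT and 8.42 in *UTX TCD*, a difference of -0.64. The intronic peak at chr10:62503297-62503697 had 9.86 and 9.45. The intergenic peak at chr10:62549801-62550201 had 8.52 and 8.11. The intergenic peak at chr10:62543506-62543906 had the highest concentrations of the peaks described, 11.59 in WT and 11.93 in *UTX TCD*.

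**Figure D3:**
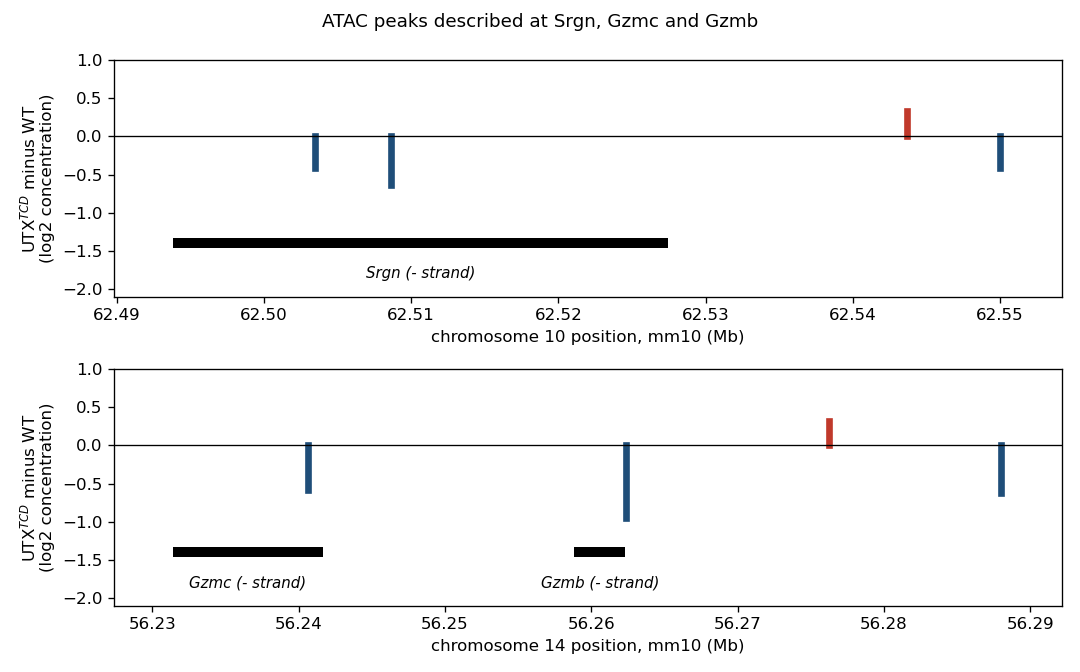
Positions of the ATAC peaks described (x axis, mm10, Mb) at *Srgn* on chromosome 10 and at *Gzmc* and *Gzmb* on chromosome 14, with the difference of the authors' mean log2 concentrations, *UTX TCD* minus WT, as vertical bars (blue lower, red higher) and gene spans as black bars. At each locus 1 peak is higher, and the others shown are lower, down to -0.96 at the *Gzmb* promoter.

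The remaining 4 genes had 1 peak each, all higher in *UTX TCD*. The *Lamp1* peak at chr8:13161873-13162273, in its first intron, had 6.01 in WT and 7.93 in *UTX TCD*. Its difference of 1.92 was the largest gain among the 13 peaks, and *Lamp1* RNA did not pass the test. The *Gzmm* peak at chr10:79691933-79692333 touches a RefSeq *Gzmm* exon and had 6.75 and 7.85; its RNA did not pass either. The *Gzmk* peak at chr13:113170271-113170671, between genes and 959 bp from the 3′ end of *Gzmk*, had 5.32 and 6.11. The *Gzma* peak at chr13:113087601-113088001 lies in an intron of *Cdc20b*, 5823 bp past the 3′ end of *Gzma*, and had 7.24 and 8.15. So the *Gzma* peak was higher where *Gzma* RNA was called lower. Within 25 kb of the 3 genes without a peak, the table listed 2 peaks annotated to *Adamts14* near *Prf1*, with differences of 0.32 and -0.31, 1 near *Nkg7* in *Etfb*, at -0.43, and 1 before *Fibp* near *Ctsw*, at -0.50.

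Short motifs of factors known in T cells were searched on both strands, as a description: CTTTGAT and CTTTGAA for TCF/LEF, TTCNNNGAA for STAT factors, TGANTCA for AP-1, TGTGGT for RUNX, GGTGTGA for T-box, TGGAAA for NFAT and CACCTG for the E-box bound by ZEB. CTTTGAA can overlap the STAT pattern, and did in the *Gzmm* peak. RefSeq promoter windows (GRCm38.p6, 250 bases before to 50 after a start) were found for 9 of the 10 genes, all but *Ctsw*. RUNX letters stood in a window of 8 of the 9, against 16.8% of all 32851 windows of that length. NFAT letters were in 4 (21.4% of all windows), STAT in 3 (8.30%), T-box in 3 (3.98%), the ZEB E-box in 2 (20.2%), AP-1 in 1 (7.81%), CTTTGAA in 1 (5.13%) and CTTTGAT in 0 (3.73%). Some genes have 2 windows, which raises their chance of a match. Of the 13 peaks of 401 bp, 7 held RUNX letters, against 39.7% of 23907 listed peaks, and 4 held CTTTGAT, against 9.01%. STAT letters were in 4 (11.9%), NFAT in 4 (27.7%), AP-1 in 3 (12.8%), the ZEB E-box in 3 (30.7%), T-box in 1 (7.09%) and CTTTGAA in 1 (11.8%).

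The *Gzmb* promoter window is shown because a listed peak, lower in *UTX TCD*, covers 275 of its 300 bases. It is chr14:56262285-56262584 (GRCm38.p6, minus strand, RefSeq), and capitals mark a pair of RUNX matches, an AP-1 match between them and a STAT match after the start.
Gzmb promoter: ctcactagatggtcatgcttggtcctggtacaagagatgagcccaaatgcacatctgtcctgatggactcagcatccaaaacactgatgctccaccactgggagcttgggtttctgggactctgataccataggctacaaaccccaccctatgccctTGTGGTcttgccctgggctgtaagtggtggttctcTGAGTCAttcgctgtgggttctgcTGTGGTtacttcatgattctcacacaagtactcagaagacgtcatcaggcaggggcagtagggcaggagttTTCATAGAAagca

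The central 300 bases of 2 peaks, 1 with TCF/LEF letters and 1 with the largest gain, are shown on the plus strand of the same build. In the peak upstream of *Gzmb*, chr14:56287822-56288121, capitals mark a RUNX match and a second one that shares bases with a CTTTGAT match, read on the opposite strand. The *Lamp1* intron peak with the largest gain, chr8:13161923-13162222, held none of the motifs in this stretch. The whole peak of 401 bp held 1 NFAT match, outside the bases shown.
Gzmb upstream peak: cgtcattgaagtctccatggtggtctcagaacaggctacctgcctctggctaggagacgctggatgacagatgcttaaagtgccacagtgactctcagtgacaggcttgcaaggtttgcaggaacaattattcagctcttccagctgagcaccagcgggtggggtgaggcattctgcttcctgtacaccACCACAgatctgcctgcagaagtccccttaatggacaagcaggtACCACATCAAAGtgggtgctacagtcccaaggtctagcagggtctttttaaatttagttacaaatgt
Lamp1 intron peak: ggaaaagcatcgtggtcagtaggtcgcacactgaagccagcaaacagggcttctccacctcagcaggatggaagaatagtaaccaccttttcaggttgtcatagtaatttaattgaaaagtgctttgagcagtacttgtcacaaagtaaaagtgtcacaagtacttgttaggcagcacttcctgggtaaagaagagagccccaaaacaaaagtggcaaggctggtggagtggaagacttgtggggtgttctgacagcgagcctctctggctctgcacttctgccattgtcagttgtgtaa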

How the data were processed

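RNA-seq and ATAC-seq were made from sorted CD8+ T_prog_ cells of 2 genotypes, 3 libraries each per assay. For RNA, the authors aligned reads to mm10 with HISAT2 (2.2.1, from the submitters' processing notes), counted them per gene with featureCounts and deposited DESeq2-normalized counts, a signal on a linear scale; the annotation, strand setting and handling of multiply matching reads were not stated. Values were whole multiples of 1 step per library (100% of values within 0.1 read), which gave the reads and a depth of 61512402 to 193568919 per library; at this depth 3 reads, the limit that a count of 0 allows, were 2.21 to 6.75 normalized counts. For ATAC, the authors used Bowtie2, Picard, MACS2, DiffBind and HOMER and deposited mean log2 concentrations per genotype; a shift for the transposase was not stated, and 0 of the listed peaks had an FDR of 0.05 or more. Columns of the authors' comparisons (fold changes, their errors, p-values and adjusted values) were not used, other than that check of the FDR range.

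Genotypes were compared with limma (3.58.1, R 4.3.3; lmFit, eBayes with trend, Benjamini-Hochberg over 14459 genes) on log2(normalized count + 1); this scale understates the change of low genes. The code was tested on simulated data. An exact two-sided permutation test of 3 against 3 cannot go below 0.1 and was not used. edgeR (4.0.16) and DESeq2 (1.42.0) on the recovered reads, other pseudocounts, minimums, scalings and fold limits, a replicate block and leaving out each library were alternatives. The genes and lists were chosen with earlier results of these data known. Named were all 10 granule genes and the peaks annotated to them, of which 1 is counted but not reported here, called genes of each pathway list (at most 4, by adjusted p), the most abundant and the 0-count genes of each marker list, the nearest listed gene on either side of each granule gene, *Kdm6a* and the 3 genes nearest to *Gzmb* and *Gzma*; other names were chosen after their values were seen. Peak and promoter sequence came from RefSeq (GRCm38.p6, the same assembly as mm10).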

Additional observations from a re-analysis of the deposited data

How the results depend on the processing

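*Gzma* and *Gzmc* were called in every alternative that tested them. The number of granule genes called was 4 in the main setting and with TMM scaling, edgeR, DESeq2 or other pseudocounts, 2 with libraries scaled to the same sum, 2 at a fold of 1.5, and 3 to 6 when 1 library was left out; the scaling moved the median of all genes by 0.062 (log2). All genes called numbered 2538, 2541 with edgeR, 2422 with DESeq2, and 5887 with no fold limit. Replicate numbers did not pair the libraries (same-number deviations correlated at 0.305, -0.200 and 0.0897); with the replicate block 2474 genes and 4 granule genes were called. Directions turned for *Gzmk* (0.19 with edgeR, 0.14 with DESeq2; -0.80 to 0.30 leaving out 1 library) and *Lamp1* (-0.015 to 0.066 leaving out 1 library), and the cause was not tested. The adjusted p of *Gzmb* rose to as much as 0.0944 and was over the limit in 3 alternatives.

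The alternatives for the lists were chosen after seeing the data. With no fold limit, by construction, more genes were called: 10 lower and 2 higher for maturation and sorting, 5 lower for transport and release, 3 lower and 1 higher for inhibitors, 4 lower and 2 higher for substrates, and 4 higher for regulators. Of all 14459 genes tested, 2963 were called lower and 2924 higher at that setting. *Cd63* made 1 maturation gene higher with libraries scaled to the same sum. Leaving out 1 library gave 0 to 1 higher for maturation, 0 to 1 lower for inhibitors (*Cst3*) and 0 to 1 lower for substrates (*Nme1*).

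With the peak itself in place of the promoter window, CTTTGAT was found at 3 genes (0 in windows), AP-1 at 3 (1), RUNX at 2 (8) and T-box at 1 (3); only 7 genes have a peak. *Gzmc* and *Gzmk* were not tested at a minimum mean of 50. The ATAC values had no replicate check.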
